A study of Homo sapiens with 39 samples.

Results

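The expression of 8 genes of drug metabolism was followed in HepaRG™ cells, a human hepatic line whose differentiated cultures hold both hepatocyte-like cells and cells resembling bile duct epithelium. The 8 genes were the 4 members of the CYP3A family (CYP3A4, CYP3A5, CYP3A7 and CYP3A43), CYP2B6, the nuclear receptors NR1I2 (PXR) and NR1I3 (CAR), and POR. They were found by gene symbol among the 20802 gene targets of the deposited tables, and each had 1 target. The 39 AmpliSeq libraries comprised 3 concentrations each of 10 chemicals and 9 vehicle controls, and each library was made from RNA pooled from 3 cultures, so that every condition was 1 library. Differentiated cells received a chemical daily for 3 days and were harvested 7 h after the third treatment. The 5 DNA damage-inducing (DDI) chemicals were 2-nitrofluorene (2NF; 10, 50 and 250 µM), aflatoxin B1 (AFB1; 0.25, 1 and 2.5 µM), cisplatin (CISP; 2, 5 and 10 µM) and etoposide (ETP; 0.5, 2.5 and 10 µM), all in DMSO, and methyl methanesulfonate (MMS; 50, 100 and 200 µM) in water. The 5 non-DDI chemicals were colchicine (COL; 0.05, 0.1 and 0.3 µM) in DMSO, and 2-deoxy-D-glucose (2DG; 1.25, 5 and 10 mM), ampicillin (AMP; 1, 3 and 10 mM), sodium ascorbate (ASC; 1, 2 and 10 mM) and NaCl (1, 2.5 and 10 mM) in media. There were 4 DMSO controls, 4 media controls and 1 water control, and AFB1 and COL were set against the same DMSO control. All libraries came from 1 cell line.

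PXR and CAR are receptors of the liver that respond to foreign chemicals. Each pairs with the retinoid X receptor and binds response elements near the genes of drug-metabolizing enzymes, of which CYP3A4 and CYP2B6 are the classic targets of PXR and CAR, respectively. CYP3A4 oxidizes a large share of medicines and also AFB1, CYP3A5 has overlapping substrates, CYP3A7 is the main form of the fetal liver, and CYP2B6 oxidizes drugs such as cyclophosphamide. POR is the reductase that passes electrons from NADPH to microsomal P450 enzymes.

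The promoter windows of the CYP3A genes are shown because the everted repeat ER6, a response element bound by PXR, is known from this gene family, and the windows differ in how closely they match it. The sequences are those of RefSeq on GRCh38.p14, in which windows were held for 7 of the 8 genes (POR had none). Each is written 5′ to 3′ on the strand of the gene, with the 18 bases that match ER6 best in capitals.
CYP3A4: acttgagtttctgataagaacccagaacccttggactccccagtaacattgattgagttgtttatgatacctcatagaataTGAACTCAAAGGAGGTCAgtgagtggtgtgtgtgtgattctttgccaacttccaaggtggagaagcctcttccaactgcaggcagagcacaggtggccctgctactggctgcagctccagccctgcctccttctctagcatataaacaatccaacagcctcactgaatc
CYP3A5: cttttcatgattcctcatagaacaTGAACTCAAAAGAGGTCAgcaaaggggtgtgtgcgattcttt
CYP3A7: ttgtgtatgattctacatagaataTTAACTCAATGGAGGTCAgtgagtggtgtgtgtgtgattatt
CYP3A43: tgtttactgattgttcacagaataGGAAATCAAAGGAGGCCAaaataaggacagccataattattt
The CYP3A4 window is chr7:99784185-99784434 on the minus strand and ends at the base before the annotated start, and the 3 others are 66-base stretches around the match. They lie at chr7:99680068-99680133 (CYP3A5, minus strand), chr7:99735323-99735388 (CYP3A7, minus strand) and chr7:99827812-99827877 (CYP3A43, plus strand). The motif searched on both strands was ER6, the half-sites TGAACT and AGGTCA with any 6 bases between them. CYP3A4 and CYP3A5 held it exactly, the first 169 to 152 bases and the second 113 to 96 bases before the start. Exact matches were found in 3 of 35116 promoter windows of all genes (0.00854%). The best match in CYP3A7 carried 1 substitution, G2T, and that in CYP3A43 carried 3, T1G, C5A and T16C, counted from 1 at the 5′ end of the motif. The direct repeats DR3 and DR4, AGTTCA followed by AGTTCA after any 3 or 4 bases, were found in 0 and 2 of 35116 windows (0.00570% for DR4), with no match in the 8 windows of these genes. The windows searched reached only 250 bases before the annotated start, so elements farther upstream were not searched. A match of letters, or its absence, is a description of the window only.

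The deposited counts summed to between 8504699 and 16425527 per library, with a median of 11202013. The hepatocyte markers were present in every library, from 2299 to 36331 RPM (counts scaled to the library total) for ALB, the gene of serum albumin. Of the cholangiocyte markers, KRT19 was read at 199 to 1314 RPM, whereas KRT7 was at 0 in 28 of 39 libraries and EPCAM in 35. Over all 39 libraries CYP3A4 ran from 20 to 2664 counts, CYP3A5 from 407 to 4969, CYP2B6 from 23 to 1466 and POR from 751 to 4040. CYP3A7 was read at 9 to 164 counts and NR1I3 at 1 to 88. NR1I2 and CYP3A43 were read at 0 to 15 counts each, with 2 libraries at 0, so that changes in these 2 genes were hardly detectable at this depth. Since each gene was read on its own amplicon, levels were compared between libraries and not between genes. The CYP3A7 target is also assigned to the identifier of its read-through transcript, and CYP2B7P1, a near-identical copy of CYP2B6, has its own target. Reads could be shared between such copies, which was not tested.

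The first comparison was between vehicles. CYP3A4 was the gene that separated them most among the 8. It was read at 113, 138, 165 and 279 RPM in the 4 DMSO controls and at 12.2, 20.03, 23.2 and 27.4 RPM in the 4 media controls, and the water control had 8.41 RPM. Every DMSO control lay above every media control, and the lowest of the former was 4.13 times the highest of the latter. The mean was 174 ± 73.2 RPM in DMSO and 20.7 ± 6.43 RPM in media (SD, n = 4 each), a ratio of 8.39. The log2 difference was 3.09 with an SE of 0.31 (edgeR quasi-likelihood test, Benjamini-Hochberg adjusted p = 0.00144).

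CYP2B6 was read at 59.9, 62.0, 72.6 and 105 RPM in DMSO, at 14.5, 22.6, 29.2 and 29.8 RPM in media and at 16.5 RPM in water. The 2 groups did not overlap, and the log2 difference was 1.66 (SE 0.24, edgeR adjusted p = 0.00475). CYP2B7P1, its near-identical copy, was likewise higher in DMSO, by 2.30 on the log2 scale (SE 0.25, edgeR adjusted p = 0.00173). CYP3A5 was read at 302 to 362 RPM in DMSO and at 146 to 231 RPM in media, with a log2 difference of 0.96 (SE 0.15, edgeR adjusted p = 0.00571). Its water control, at 251 RPM, lay above the media controls, unlike those of CYP3A4. POR was read at 189 to 288 RPM in DMSO and at 125 to 183 RPM in media. The difference in POR was the smallest that passed the test, 0.68 on the log2 scale (SE 0.15, edgeR adjusted p = 0.0265), and it no longer passed when any of 6 of the 8 controls was left out (adjusted p of 0.0503 to 0.0921).

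NR1I3 was read at 3.18 to 6.30 RPM in DMSO and at 1.02 to 3.96 RPM in media. The groups overlapped, and its log2 difference of 0.84 did not pass the test (SE 0.38, edgeR adjusted p = 0.231). CYP3A7 also overlapped, at 4.62 to 11.7 RPM against 5.05 to 8.52 RPM (log2 difference -0.13, SE 0.33, edgeR adjusted p = 0.866). NR1I2, at 0.412 to 0.931 RPM in DMSO and 0.477 to 0.791 RPM in media, and CYP3A43 were too low for the edgeR fit. CYP3A43 had 4 to 15 counts in the DMSO controls and 4 to 5 in the media controls, and its RPM did not overlap (0.419 to 1.07 against 0.273 to 0.406). In all, 5 of the 8 genes lay higher in DMSO without overlap and 0 lower, against 4.79% and 8.87% of the 12790 genes with a mean RPM of at least 1. In an exact permutation test on log2(RPM + 1), two-sided, CYP3A43 and each of the 4 genes above gave p = 0.0286, the smallest that 4 against 4 allows. These p-values measure the spread between control libraries, which were prepared for separate chemicals.

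Thus 4 of the 6 genes tested were higher in DMSO and 0 were lower, whereas over all 13053 genes tested 1.66% were higher and 3.68% lower. Of 16 other PXR/CAR target genes, 15 could be tested, of which 5 were higher and 0 lower. UGT1A1, which conjugates bilirubin, was higher by 1.73 on the log2 scale (SE 0.22, edgeR adjusted p = 0.00235), and CYP2A6, the nicotine oxidase, by 1.301 (SE 0.31, edgeR adjusted p = 0.0366). SULT2A1, a sulfotransferase of steroids and bile acids, was higher by 1.29 (SE 0.26, edgeR adjusted p = 0.0189). EPHX1, the microsomal epoxide hydrolase, was higher by 0.74 (SE 0.10, edgeR adjusted p = 0.00295). Of 21 receptor partners and upstream regulators, 20 could be tested and 1 was higher, PPARA (log2 difference 0.48, SE 0.10, edgeR adjusted p = 0.0246). Of 11 genes of electron transfer and heme supply, 0 passed the test, and the largest difference was that of ALAD, 0.51 (SE 0.16, edgeR adjusted p = 0.0940). Cell type markers moved with the vehicle too. Of 10 hepatocyte markers 3 were higher in DMSO, with TTR at 1.55 on the log2 scale (SE 0.23, edgeR adjusted p = 0.00531), and their summed level was 41940 to 55196 RPM in DMSO and 30772 to 38392 RPM in media. ALB overlapped between the vehicles, as did AHSG, whose mean was 3.56 RPM in DMSO and 6.49 RPM in media. Of 4 cholangiocyte markers tested SPP1 was lower and SOX9 higher, and the summed level of the 7 markers was 469 to 1348 RPM in DMSO and 1071 to 1467 RPM in media, with KRT7 at 0 in all 8 controls. The part of these markers in the vehicle difference was not tested.

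**Figure D1:**
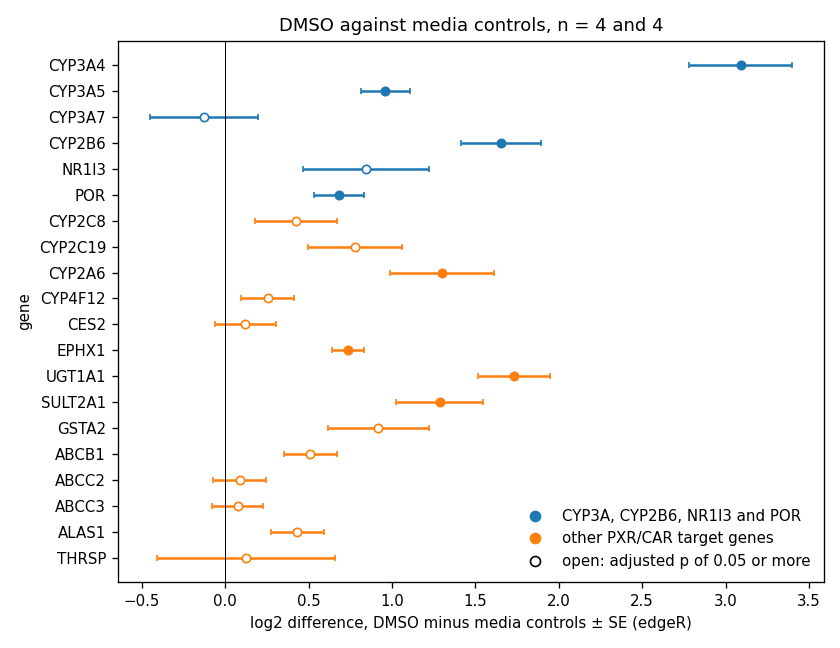
Log2 difference between DMSO (n = 4) and media (n = 4) controls with its SE (edgeR), for 6 of the 8 genes and other PXR/CAR target genes. Filled points have an adjusted p under 0.05. CYP3A4 has the largest difference, 3.09, and CYP3A7 is the only one of the 8 genes with an estimate below 0.

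The order of all 39 libraries by CYP3A4 followed the vehicle. The 16 highest libraries, from 279 RPM in the DMSO control of 2NF to 49.6 RPM in COL at 0.3 µM, had all received DMSO. The highest library without DMSO was AMP at 10 mM, with 39.2 RPM. Only 3 libraries given in DMSO lay lower, AFB1 at 1 µM (28.4 RPM), 2NF at 250 µM (27.9 RPM) and AFB1 at 2.5 µM (2.53 RPM). The lowest library of all was MMS at 100 µM, with 1.76 RPM. Neighbours in this order lay within the spread between controls of 1 vehicle, which spanned 1.29 on the log2 scale among DMSO controls and 1.11 among media controls. For these reasons each treated library was set only against its own vehicle control below.

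The second question was how the 8 genes followed the concentration of each chemical. In 2NF, CYP3A4 was read at 279 RPM in the control and at 224, 70.8 and 27.9 RPM at 10, 50 and 250 µM. In AFB1, it was read at 113 RPM in the control and at 99.4, 28.4 and 2.53 RPM at 0.25, 1 and 2.5 µM. The last value rests on 27 counts (95% Wilson interval 1.74 to 3.67 RPM, counting error only). In COL, which shares that control, the levels were 101, 87.7 and 49.6 RPM at 0.05, 0.1 and 0.3 µM. The level was thus lower at each higher concentration in all 3 chemicals. In MMS, where the water control was already low at 8.41 RPM, CYP3A4 was read at 9.97, 1.76 and 3.50 RPM at 50, 100 and 200 µM.

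A slope per concentration step (control, low, mid, high) was fitted to the counts of each chemical in 1 edgeR model of the 39 libraries, whose error is the scatter of the libraries around their lines. The slope of CYP3A4 was -1.61 per step on the log2 scale in AFB1 (SE 0.23, edgeR adjusted p = 0.000181), -1.20 in 2NF (SE 0.22, edgeR adjusted p = 0.000490) and -0.66 in COL (SE 0.20, edgeR adjusted p = 0.0251). In MMS it was -0.65 (SE 0.27), which did not pass the test (edgeR adjusted p = 0.102). The differences between the slopes of these chemicals were not tested, and the slopes of AFB1 and COL are not independent because of their shared control.

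CYP2B6 fell in the same 3 chemicals. Its control and 3 concentrations were read at 105, 140, 18.4 and 14.0 RPM in 2NF, at 59.9, 49.3, 17.5 and 2.34 RPM in AFB1, and at 59.9, 49.5, 28.5 and 8.89 RPM in COL. The highest CYP2B6 level of all 39 libraries, 140 RPM, was that of 2NF at its low concentration. The slopes were -1.24 in 2NF (SE 0.28, edgeR adjusted p = 0.00404), -1.48 in AFB1 (SE 0.28, edgeR adjusted p = 0.00148) and -1.08 in COL (SE 0.26, edgeR adjusted p = 0.00584). In MMS the levels were 16.5, 12.6, 2.02 and 6.43 RPM, with a slope of -0.67 (SE 0.28, edgeR adjusted p = 0.105).

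NR1I3, the gene of CAR, fell in 4 chemicals. It was read at 6.18, 6.59, 1.16 and 0.383 RPM in 2NF, at 6.30, 4.11, 1.54 and 0.187 RPM in AFB1, at 6.30, 3.43, 1.29 and 0.434 RPM in COL, and at 1.67, 1.91, 0.088 and 0.226 RPM in MMS. The high concentrations held only 4, 2, 4 and 2 counts, respectively, so the level there is known within wide limits (in AFB1 a 95% Wilson interval of 0.0513 to 0.682 RPM). The slopes lay close together, at -1.32 in 2NF, -1.35 in AFB1, -1.35 in COL and -1.17 in MMS (SE 0.24 to 0.35, edgeR adjusted p of 0.000403 to 0.0219). NR1I2, the gene of PXR, had slopes below 0 in the same 4 chemicals, from -0.51 in COL to -1.07 in MMS (SE 0.33 to 0.52), of which 0 passed the edgeR test (adjusted p of 0.114 to 0.405). One of these, in AFB1, had an unadjusted p under 0.05. It was at 0 counts in AFB1 at 2.5 µM and in MMS at 200 µM, where 3 counts would be 0.280 and 0.338 RPM.

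CYP3A5 and CYP3A7 fell in all 4 chemicals. CYP3A5 was lowest in MMS, with 251, 129, 42.3 and 45.9 RPM from the control to 200 µM and a slope of -0.92 (SE 0.11, edgeR adjusted p = 4.73e-06). Its slopes were -0.39 in 2NF, -0.46 in AFB1 and -0.37 in COL (SE 0.11 to 0.12, edgeR adjusted p of 0.00997 to 0.0407). The call in 2NF was lost in 6 of 11 alternatives, among them limma (adjusted p = 0.0691) and scaling to library totals alone in edgeR (adjusted p = 0.0574). The highest CYP3A5 level of all libraries, 475 RPM, was that of 2NF at 10 µM. CYP3A7 was read at 5.24, 5.35, 1.70 and 1.92 RPM in 2NF, at 11.7, 7.33, 5.57 and 1.68 RPM in AFB1, at 11.7, 6.25, 7.05 and 3.25 RPM in COL, and at 4.76, 2.62, 0.792 and 1.02 RPM in MMS. The slopes ran from -0.60 in COL to -0.94 in MMS (SE 0.15 to 0.20, edgeR adjusted p of 0.00158 to 0.0239). The CYP3A7 level of the control shared by AFB1 and COL was more than 2 times that of each other DMSO control, which bears on both slopes. CYP3A43 was read at no more than 15 counts and had no test. Its matched ratios in these 4 chemicals lay between -1.05 and 0.06 on the log2(RPM + 1) scale.

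POR had the slope nearest to 0 in each of these chemicals among the 7 genes tested. It was read at 189, 163, 136 and 97.0 RPM in AFB1, at 189, 174, 136 and 120 RPM in COL, and at 125, 114, 70.3 and 84.7 RPM in MMS. The slopes were -0.35 (SE 0.07, edgeR adjusted p = 0.00399), -0.28 (SE 0.07, edgeR adjusted p = 0.0115) and -0.27 (SE 0.08, edgeR adjusted p = 0.0172), respectively. In 2NF, POR was at 275 RPM in the control and at 319, 214 and 268 RPM, with a slope of -0.09 that did not pass the test (SE 0.08, edgeR adjusted p = 0.637).

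**Figure D2:**
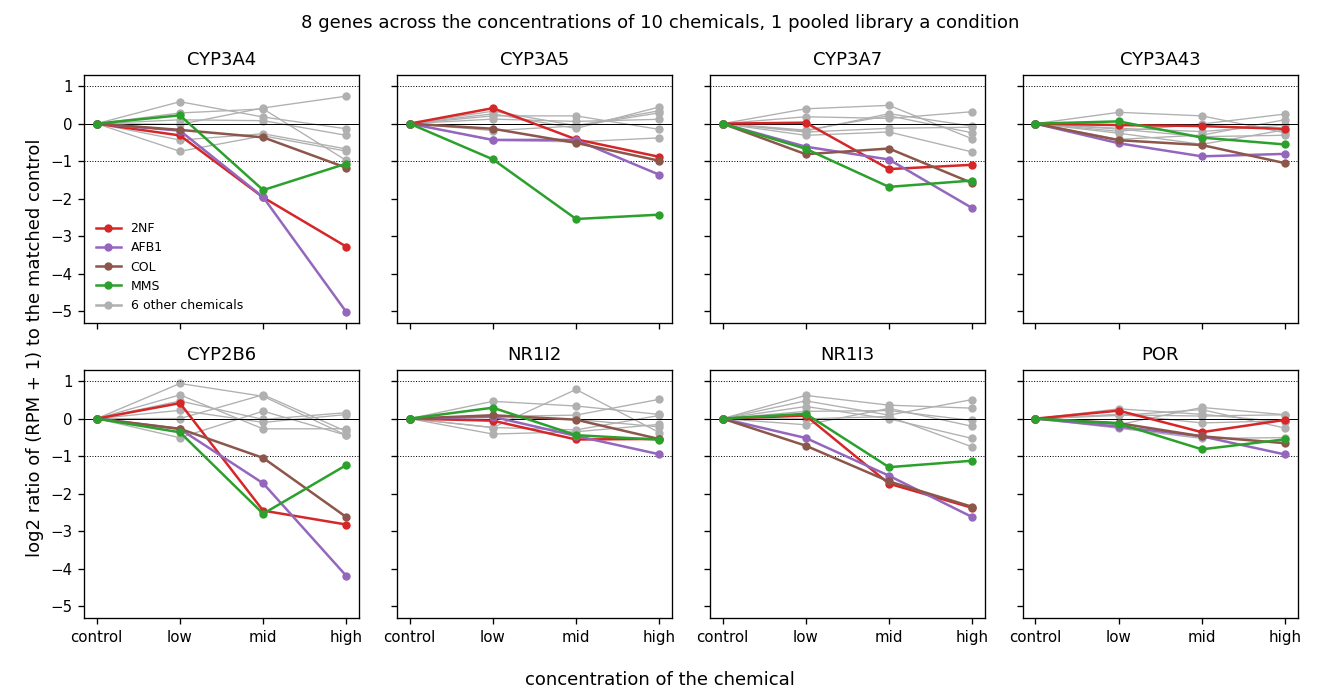
Log2 ratio of (RPM + 1) to the matched vehicle control against the concentration of the chemical, 1 pooled library per point, for the 8 genes. Colored lines are 2NF, AFB1, COL and MMS and gray lines are the 6 other chemicals. CYP3A4 reaches -5.02 in AFB1, while POR stays above -1 in all 30 conditions.

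Of the 7 genes tested, 5 fell with concentration in 2NF, 6 in AFB1, 6 in COL and 4 in MMS, and 0 rose. Over all 13812 genes tested, those that fell were 4.45% in 2NF, 3.21% in AFB1, 7.21% in COL and 10.4% in MMS, and those that rose were 4.3%, 2.36%, 5.13% and 5.1%. The 21 calls were made among 70 slopes, beside 2.53% of all slopes called lower. In CISP, ETP, 2DG, AMP, ASC and NaCl, 0 of 42 slopes passed the edgeR test, and they lay between -0.27 and 0.35. A single one had an unadjusted p under 0.05, that of POR in ETP (-0.18, SE 0.08, edgeR adjusted p = 0.997). DESeq2 called the same 21 slopes as edgeR, and of these 42 it called 0 and gave 1 an unadjusted p under 0.05. Over all genes few slopes passed in these chemicals in either direction, 0% in CISP, 2DG and AMP, 0.0796% in ETP, 0.0579% in ASC and 0.0434% in NaCl. In CISP, CYP3A4 was read at 165, 98.3, 131 and 98.6 RPM and CYP2B6 at 62.0, 62.1, 96.8 and 48.7 RPM from the control to the high concentration. In ETP, CYP3A4 was read at 138, 208, 156 and 126 RPM. These levels stayed within the range of the 4 DMSO controls, or below its lower end by less than the span of the controls.

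**Figure D3:**
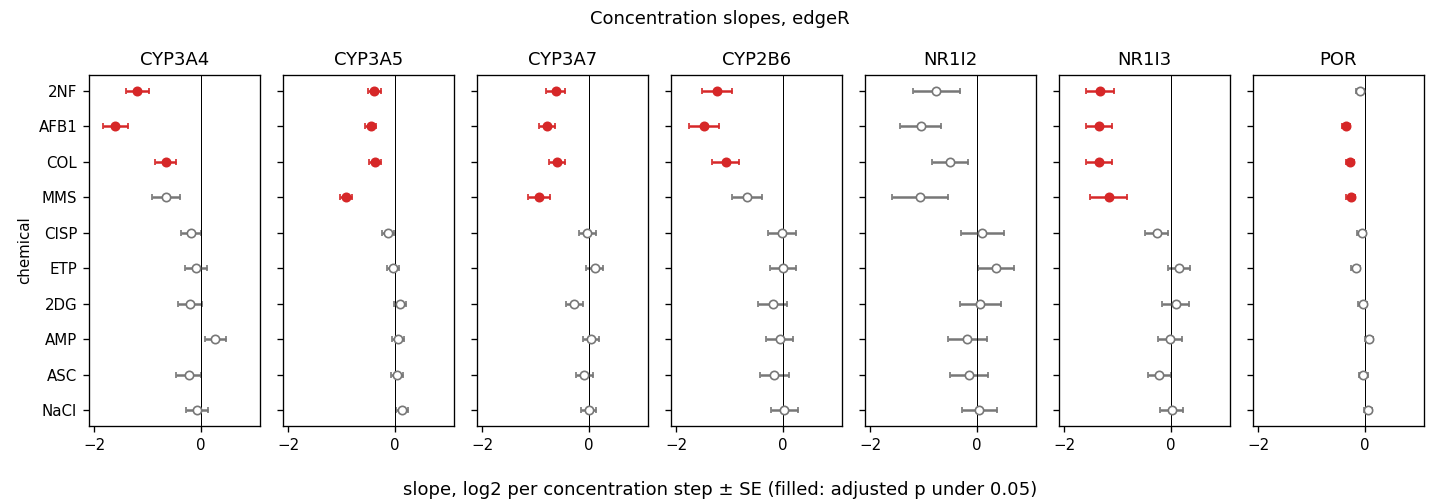
Slope per concentration step with its SE for 7 genes and 10 chemicals (edgeR, log2 scale). Filled points have an adjusted p under 0.05. The 21 filled points all lie below 0 and belong to 2NF, AFB1, COL and MMS.

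The number of calls depended on which libraries entered the fit. With the 9 vehicle controls left out, 4 were kept, namely CYP3A4, CYP2B6 and NR1I3 in 2NF and CYP3A4 in AFB1, while the number over all genes went from 5846 to 236. The 17 slopes that lost the call there lay between -2.18 and -0.24, and 12 of them were steeper than with the controls. Without the high concentration 3 were kept, all in MMS (CYP3A5, CYP3A7 and POR), and without the low concentration 13 were kept. Each of the 21 slopes remained below 0 in every alternative.

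Other PXR/CAR target genes fell in these chemicals too. Of 15 tested, 7 fell in 2NF, 7 in AFB1, 13 in COL and 10 in MMS, and 0 rose. Of all genes, 4.45%, 3.21%, 7.21% and 10.4% fell. The median slopes of the list were -0.29, -0.27, -0.46 and -0.44, against medians near 0 over all genes (between -0.01 and 0.00 in the 4 chemicals). THRSP, a lipogenic gene, had the lowest slope of the list in AFB1 (-2.18, SE 0.47, edgeR adjusted p = 0.00440), in 2NF (-1.77, SE 0.46, edgeR adjusted p = 0.0118) and in COL (-1.53, SE 0.41, edgeR adjusted p = 0.0132). These slopes rest on few reads, since THRSP had 10 counts in the control of 2NF, 15 in that of AFB1 and COL and 0 at each of the 3 high concentrations. CYP2C8, which oxidizes paclitaxel, fell by 1.498 per step in 2NF (SE 0.26, edgeR adjusted p = 0.000280). In MMS the lowest slope was that of CYP2C8, -1.26 (SE 0.27, edgeR adjusted p = 0.00232).

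Of 21 receptor partners and upstream regulators, 0 fell in 2NF, 1 in AFB1, 7 in COL and 9 in MMS. The shares of all genes that fell were 4.45%, 3.21%, 7.21% and 10.4%, so the counts in 2NF and AFB1 were near these shares. The 1 in AFB1 was CEBPA, a factor of hepatocyte differentiation (-0.57, SE 0.16, edgeR adjusted p = 0.0322). In COL it was at -0.73 (SE 0.18, edgeR adjusted p = 0.00563), beside the coactivator PPARGC1A at -0.73 (SE 0.13, edgeR adjusted p = 0.000380) and HNF4A at -0.58 (SE 0.15, edgeR adjusted p = 0.0101). In MMS the lowest were NR0B2 (-2.53, SE 0.88, edgeR adjusted p = 0.0489) and NR1H4 (-0.95, SE 0.16, edgeR adjusted p = 0.000263), a corepressor and the bile acid receptor. NR0B2 had only 8 counts in the water control, 1 in MMS at 50 µM and 0 at 100 and 200 µM. In 2NF, NR1H4 had a slope of -0.47 that did not pass (SE 0.16, edgeR adjusted p = 0.0689). Of the 11 genes of electron transfer and heme supply, CYB5A and ALAD fell in all 4 chemicals. CYB5A, the cytochrome that assists P450 enzymes, had slopes of -0.32 in 2NF, -0.27 in AFB1, -0.47 in COL and -0.45 in MMS (SE 0.07, edgeR adjusted p of 3.96e-05 to 0.0189). HMOX1, which breaks down heme, rose in 2NF (0.62, SE 0.16, edgeR adjusted p = 0.0127).

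Hepatocyte markers moved in the same direction. Of 10, 6 fell in 2NF, 6 in AFB1, 7 in COL and 8 in MMS, and 0 rose. Their median slopes were -0.46, -0.43, -0.42 and -0.73, and those of the 7 drug-metabolism genes tested were -0.76, -1.06, -0.60 and -0.92. The median log2 ratios of RPM + 1 at the high concentrations kept this order in AFB1 alone. For the markers they were -1.19 in 2NF, -1.17 in AFB1, -1.15 in COL and -1.77 in MMS. For the 8 genes, NR1I2 and CYP3A43 with their few counts included, they were -0.99, -1.80, -1.11 and -1.09. The summed level of the 10 markers went from 43628 to 16789 RPM in 2NF at 250 µM, from 48711 to 28893 RPM in AFB1 at 2.5 µM and to 23639 RPM in COL at 0.3 µM. A lower sum was not limited to the 4 chemicals. In CISP, where 0 of the 10 markers passed the slope test, it was 55196 RPM in the control. It was 41584.9, 32130.7 and 44202.5 RPM at 2, 5 and 10 µM CISP. In MMS the sum went from 30957 RPM in the control to 23615, 5562 and 9465 RPM at 50, 100 and 200 µM. Its lowest level was thus at 100 µM, as for CYP3A4, CYP3A5, CYP2B6 and POR. CYP3A7 (9 counts at 100 and 9 at 200 µM) and NR1I3 (1 and 2 counts) had too few reads to order these 2 concentrations. KRT19 was at 626 RPM in the control of 2NF and at 199 to 213 RPM in the 3 treated libraries, and it fell in 2NF (-0.53, SE 0.12, edgeR adjusted p = 0.00364). Of 4 cholangiocyte markers tested, 2 fell and 1 rose in 2NF, 0 moved in AFB1, 1 fell in COL and 2 fell in MMS. Over all genes, 4.45% fell and 4.3% rose in 2NF, and 3.21%, 7.21% and 10.4% fell in AFB1, COL and MMS. The part of these markers in the slopes of the 8 genes was not tested. In such bulk libraries, fewer cells of a type and less RNA per cell cannot be told apart.

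Single conditions had no replicate and hence no test, and were described by a change of at least 2-fold in RPM + 1. Of 240 pairs of a gene and a condition, 33 lay past 2-fold lower and 0 past 2-fold higher. Over the 12790 genes with a mean RPM of at least 1, 1.69% of the pairs were past 2-fold lower and 1.61% past 2-fold higher. The 33 pairs came from CYP2B6 (8 of 30 conditions), NR1I3 (8), CYP3A4 (7), CYP3A7 (6), CYP3A5 (3) and CYP3A43 (1), and NR1I2 and POR had 0. For NR1I2 the 0 was fixed in advance. Its controls held at most 0.931 RPM, so even 0 counts gave a log2 ratio no lower than -0.95. The CYP3A43 controls held at most 0.742 RPM, except that of AFB1 and COL, at 1.07 RPM. CYP3A43 could thus pass 2-fold lower in AFB1 and COL alone. NR1I2 and CYP3A43, with a mean RPM below 1, count in the 240 pairs but not among the 12790 genes. The 33 pairs fell in 8 conditions, the mid and high concentrations of 2NF, AFB1, COL and MMS. At 2.5 µM AFB1, at 0.3 µM COL and at 100 and 200 µM MMS, 5 of the 8 genes were lower, where 3.07%, 4.64%, 7.51% and 5.71% of all genes were. At 50 and 250 µM 2NF, 4 were lower (4.14% and 3.33% of all genes), at 1 µM AFB1 3 (0.618%) and at 0.1 µM COL 2 (1.38%). At 2 and 5 µM CISP 0 of the 8 genes were past 2-fold lower, where 6.70% and 4.33% of all genes were. With only 8 genes, a count of 0 cannot be told apart from such shares. With a pseudocount of 0.1 in place of 1, 54 pairs lay past 2-fold lower, of which CYP3A43 gave 12 and NR1I2 8, both genes of few counts. They then fell in 15 conditions, and 1 pair lay past 2-fold higher. CYP3A4 then gave 8, the added one being ASC at 10 mM. It was read there at 9.66 RPM (95 counts) against 20.03 RPM (329 counts) in its control. This log2 ratio was -0.98 with a pseudocount of 1 and -1.05 with 0.1, smaller in size than the span of 1.11 among media controls.

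The 2 steps of COL and AFB1 can be read side by side against their common control. At the mid concentrations CYP3A4 was 3.99 times lower in AFB1 and 1.29 times lower in COL, and at the high concentrations 44.8 and 2.28 times lower. CYP2B6 was 25.6 times lower in AFB1 and 6.74 times lower in COL at the high concentrations, and NR1I3 was near its limit of detection in both. The concentrations of the 2 chemicals differ, and no test of this difference was made.

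The highest ratios among the 30 conditions were modest. CYP2B6 was at 56.8 RPM in ASC at 1 mM against 29.2 RPM in its control, a log2 ratio of 0.94, and its level in ASC at 10 mM was 21.2 RPM. Its near-identical copy CYP2B7P1 had log2 ratios of 1.13, 1.48 and 0.24 in ASC at 1, 2 and 10 mM (control 3.90 RPM). The span of CYP2B7P1 among media controls was 0.72. CYP3A4 was at 39.2 RPM in AMP at 10 mM against 23.2 RPM, a log2 ratio of 0.73, and at 208 RPM in ETP at 0.5 µM against 138 RPM. NR1I2 was at 1.42 RPM in CISP at 5 µM (15 counts) against 0.412 RPM (5 counts) in its control, a log2 ratio of 0.78 that rests on few counts. The differences in CYP2B6 and CYP3A4 were smaller than the span between controls of the same vehicle, 0.99 for CYP2B6 and 1.11 for CYP3A4 among media controls and 1.29 for CYP3A4 among DMSO controls. Falls were not all larger than these spans. That of CYP3A4 in COL at 0.3 µM, a log2 ratio of -1.18, was likewise smaller than 1.29.

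**Figure D4:**
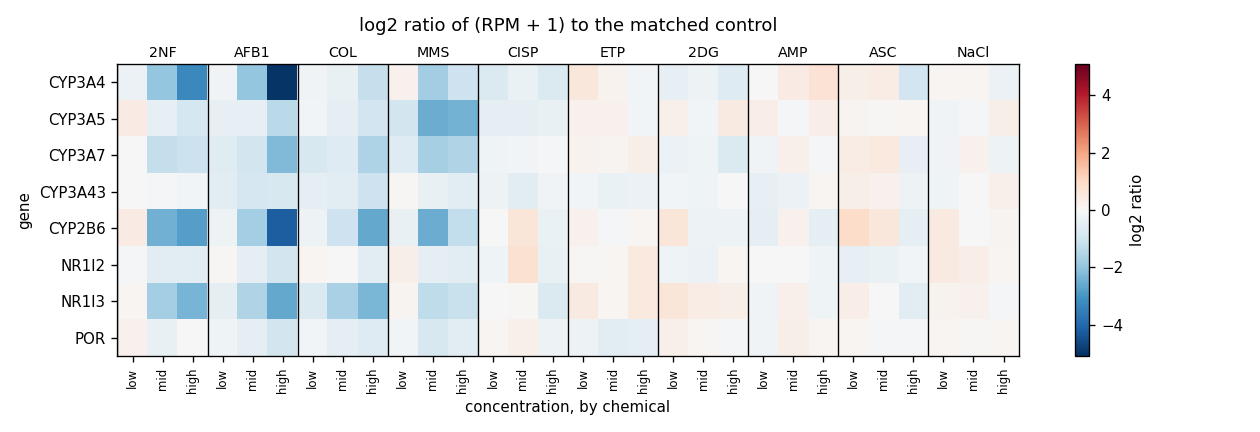
Log2 ratio of (RPM + 1) to the matched control for the 8 genes (rows) at the low, mid and high concentrations of 10 chemicals (columns). Blue cells are below and red cells above the control. The deep blue cells stand at the mid and high concentrations of 2NF, AFB1, COL and MMS.

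The third comparison was between the DDI and the non-DDI chemicals. At the high concentration CYP3A4 had a mean log2 ratio of -2.05 ± 2.04 in the 5 DDI chemicals and of -0.48 ± 0.75 in the 5 non-DDI chemicals (SD). The DDI values ran from -5.02 (AFB1) to -0.14, all below 0, and the non-DDI values from -1.18 (COL) to 0.73 (AMP), so the classes overlapped. The class difference was -1.70 (SE 0.79, edgeR adjusted p = 0.635). For CYP3A5 the means were -1.04 ± 0.90 and 0.04 ± 0.59, with a class difference of -1.03 (SE 0.38, edgeR adjusted p = 0.468), and for POR they were -0.46 ± 0.35 and -0.12 ± 0.31, with -0.38 (SE 0.18, edgeR adjusted p = 0.635). CYP2B6 had -1.70 ± 1.79 and -0.72 ± 1.09, and NR1I3 had -1.27 ± 1.27 and -0.57 ± 1.04. All 7 genes tested had an estimate below 0, but 0 passed the edgeR test, where 0.0515% of 13602 genes did, all of them higher in DDI. By unadjusted p, 2 of the 7 were under 0.05, CYP3A4 and CYP3A5, as were 7.86% of all genes. In DESeq2 0 passed and 4 had an unadjusted p under 0.05, as did 7.54% of all genes. At the mid concentration the class difference of CYP3A4 was -1.32 (SE 0.40, edgeR adjusted p = 0.808), 0 of 7 genes passed in edgeR or DESeq2, and 2 had an unadjusted p under 0.05 by each tool (5.75% of all genes in edgeR and 6.27% in DESeq2), whereas 0% of all genes passed in edgeR. At the low concentration 0 of 7 passed, 0 had an unadjusted p under 0.05 by either tool (2.26% and 1.15% of all genes), and 5 of 7 estimates were below 0.

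Class and vehicle were nearly confounded. Among the DMSO chemicals alone, where COL was the sole non-DDI chemical, the class difference of CYP3A4 at the high concentration was -1.64 (edgeR adjusted p = 0.647). The media chemicals were all non-DDI and water was given with MMS alone, so no value within these vehicles could be had. The split within the classes was wide, since 6 of the 7 genes fell with concentration in COL, a non-DDI chemical, and 0 in CISP and ETP, which are DDI. With AFB1 left out, the CYP3A4 difference was -0.83 (edgeR adjusted p = 0.973), and fitted without the control sets as a block it turned to 1.00 (edgeR adjusted p = 0.676).

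The patterns of the 8 genes over the 30 conditions were also set beside one another, as a description of points that share controls. The log2 ratios of CYP2B6 and NR1I3 had a Pearson r of 0.92 (Spearman rho 0.81, n = 30 conditions), CYP2B6 and CYP3A7 of 0.89 (rho 0.78), and CYP3A4 and CYP2B6 of 0.87 (rho 0.63). Without AFB1 and 2NF the last fell to 0.68. The lowest r was that of CYP3A43 and NR1I2, 0.20, both genes of few counts.

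Among the genes with a mean RPM of at least 1, the 10 most like CYP3A4 included TRAPPC9, CYP2B6, APOC3, CYP7A1, FABP1, CYP2A6 and ANG, with r from 0.87 to 0.84. Only 2 of the 10 stayed among the first 10 by Spearman rank (APOC3 and CYP7A1) and 1 without AFB1 and 2NF (APOC3). For CYP2B6 the 5 were APOC3, SLC38A3, MAT1A, PIPOX and C8A (r of 0.95 to 0.94), and for NR1I3 they were PKLR, BDH1, ARG1, G6PC and MAT1A (r of 0.94 to 0.92). For CYP3A5 they were IQGAP2, CHST9, A1CF, KCNH7 and PGLYRP2 (r of 0.93 to 0.90), and for CYP3A7 CYP4A11, CYP8B1, SLC38A3, PLG and APOC3 (r of 0.92 to 0.90). POR stood nearest to IMPA2 (r of 0.91, and also first by Spearman rank), followed by CGNL1, ACAA1, MTSS1 and SLC16A13. For CYP3A43 (IDNK, CYP2C19, GADD45G, ACSS1 and FGA) and NR1I2 (SHANK2, INHBE, SMOC1, APOC3 and C8A) r was at most 0.81 and 0.79.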

How the data were processed

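AmpliSeq libraries of 39 pooled RNA samples (9 vehicle controls and 30 treated) were analysed. The authors pooled the reads of 5 sequencing chips, aligned them to the panel targets (hg19) with the Torrent Mapping Alignment Program, and deposited raw counts per target. The authors also deposited RPM, the counts scaled to each library total, which differed by at most 0.000538 from RPM recomputed here. Of 20812 targets, 10 spike-in targets, all at 0, were not used, and 6 annotation columns were not used. Chemical, concentration and vehicle control were taken from the labels, and the class of each chemical from the methods of the study.

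Treated libraries were set against their matched control as log2(RPM + 1), which understates changes of low genes. The counts were tested with edgeR 4.0.16 (TMM, filterByExpr, quasi-likelihood test, R 4.3.3) in 5 fits: the class difference at each of 3 concentrations (control set as block, 8 residual degrees of freedom), the slope per concentration step of each chemical in 39 libraries (control set as block, 20 degrees of freedom), and DMSO against media controls (4 and 4, 6 degrees of freedom). P-values were adjusted after Benjamini and Hochberg across every gene of a fit, and an adjusted p below 0.05 was a call. SE is the size of the log2 value divided by the square root of its F statistic. Exact permutation tests were run on log2(RPM + 1). The edgeR fits were tested on simulated data with the same dispersion for every gene and no differences between control sets. These are simpler than the real data, so the simulation does not show how the fits behave on them.

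The 8 genes are all named. For each list, up to 4 genes with the largest difference among those passing the test were named, or the 2 largest where none passed, as well as the 10 genes most like CYP3A4 and the 5 most like each other gene by Pearson r. EPHX1 was named after its values were seen, and a few genes that the rule selects are not reported here. The genes and lists were chosen with earlier results of these data known. Alternatives were DESeq2 1.42.0, limma 3.58.1 on log2(RPM + 1), other normalizations, no low-count filter, no block, other references and pseudocounts, and each chemical, concentration or control left out. Precision was limited by 8504699 to 16425527 counts per library without molecular identifiers, so intervals cover counting error only. Since cultures were pooled, spread between cultures was not measured. Tables and figures were made with Python 3.11.15, pandas, scipy and matplotlib.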

Additional observations from a re-analysis of the deposited data

Results flagged for a closer look

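In 64 groups of 4 or 5 libraries, 6 held a library whose gap to its nearest neighbour was large for the range of its group (Dixon's criterion at 95%), where chance flags about 1 in 20 groups. The CYP3A7 level was highest in the DMSO control of AFB1 and COL, at 3.67 on the log2(RPM + 1) scale against 2.49 to 2.64 in the other 3 DMSO controls. At the high concentration COL stood below the 4 other non-DDI chemicals in CYP2B6 (log2 ratio -2.62 against -0.44 to 0.16), in CYP3A5 (-0.99 against 0.12 to 0.44) and in POR (-0.65 against -0.09 to 0.10), and at the mid concentration in NR1I3 (-1.67 against -0.00 to 0.36). MMS at 100 µM stood below the 4 other DDI chemicals at the mid concentration in CYP3A5 (-2.54 against -0.49 to 0.21). Each ratio was taken against the chemical's own vehicle control.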

How the results depend on the processing

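The 25 called values (21 slopes and 4 vehicle differences) were recomputed under 283 combinations of value and alternative. All kept their direction, 226 also kept their side of the threshold and 57 lost it. Of the 21 slopes called, 20 to 21 were called under other normalizations, filters and tools, and 16 with the concentration as a fraction of the highest one. Without MMS, whose own 4 called slopes were then not fitted, the other 17 were all called. When a concentration was left out, between 3 (without the high concentration) and 20 (without the mid concentration) were called, and without the vehicle controls 4. DMSO against media gave 4 calls under every tool and 3 to 4 with a control left out. In the exact permutation test 5 genes, CYP3A43 among them, had an unadjusted p of 0.0286, which any gene without overlap reaches, so these are not adjusted calls. Over all genes, DESeq2 called 1144 against 698 in this comparison and, for class, 96 against 7 at the high and 12 against 0 at the mid concentration. The slopes called over all genes went from 5846 to 236 without the vehicle controls, to 2143 without the high and to 3496 without the low concentration. Class differences gave 0 calls among the 8 genes at each concentration under every alternative. The CYP3A4 class difference turned to 1.00 at the high and 1.05 at the mid concentration without the block, and the cause was not tested. Pairs past 2-fold lower numbered 35 to 37 under other references and scalings, against 33, and 54 with a pseudocount of 0.1. Of the 10 genes most like CYP3A4, 2 were kept by Spearman rank and 1 without AFB1 and 2NF. Against the mean of all 9 controls, 13 pairs lay past 2-fold higher, where vehicle enters the ratio. The alternatives within DMSO chemicals, without vehicle controls and without MMS were chosen after the data were seen. Depth limited NR1I2, CYP3A43 and the high concentrations of NR1I3. Treated libraries were tied to their own vehicle control, through the ratios and the control-set block. No paired analysis was possible by replicate number because the labels give none that groups share.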
